A study of Mus musculus with 4 samples.

Results

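The polyA sites described here carried at least 1 sequenced tag in each of 4 libraries from the CA1 neuropil of the mouse hippocampus. Of the 9297 sites in the deposited table, 456 (4.90%) met this rule, and they carried 450 of the 7202 gene names in the table (6.25%). The sites were selected on their tag counts, so those counts are given as a description and were not tested between the selected sites and the rest. By its name the table lists neuropil tags at Camk peaks, so its sites need not have been called from these 4 libraries. The neuropil is the layer of dendrites and axons beside the CA1 cell bodies, here cut out of hippocampal slices from C57BL/6 mice. In these Camk2a-Cre x Pabpc1-cTag animals, Cre expressed from the Camk2a promoter switches on a GFP-tagged polyA-binding protein in pyramidal neurons. In cTag-PAPERCLIP this tagged protein is crosslinked to RNA and purified, and the bound mRNA 3′ ends are sequenced. All 4 libraries belong to 1 group, each was made from pooled mice, and no library of cell bodies or of untagged mice was analysed here, so the counts describe which 3′ ends were recovered in the neuropil and not which are enriched there.

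Dendrites hold mRNAs that are translated far from the cell body, and the 3′UTR carries many of the sequences that proteins bind to move, store or silence an mRNA. The 3′ end itself is made when the nascent transcript is cleaved downstream of a polyA signal, most often AATAAA or its variant ATTAAA in DNA letters, and polyA-binding protein covers the tail that is then added. Calcium signalling, the scaffold of the postsynaptic density, the actin of spines and local translation are the functions for which dendritic mRNAs are best known.

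The sequence around the listed position is shown for some of the selected sites with the highest median share of tags, because the position of the signal is the feature that most of them had in common. Each run holds 30 bases of GRCm38 (mm10), read 5′ to 3′ on the strand of the site, from 10 bases before to 19 bases after the listed position. Capitals mark the nearest AATAAA or ATTAAA.
Fbxl16, chr17:25821230-25821259, plus strand: ataaaaatatatATTAAAaaagttgtaaaa
Kif5a, chr10:127225696-127225725, minus strand: tatctttaaAATAAAataacttcgatgacg
Tmsb4x, chrX:167207098-167207127, minus strand: tttttttaatatgcaAATAAAgttttaaaa
Snap25, chr2:136782391-136782420, plus strand: gtttaaaattATTAAAaattatagatcaca
Fth1, chr19:9985060-9985089, plus strand: taccatttcttcaAATAAAgaattttggta
Cnih2, chr19:5092873-5092902, minus strand: tgacaaaatatgAATAAActactgaaaaca
Ncdn, chr4:126743760-126743789, minus strand: gtggacactcAATAAAtgtttattggtgat
Rplp1, chr9:61913283-61913312, minus strand: taagttggctAATAAAgagctgaacctgta
Chn1, chr2:73612342-73612371, minus strand: attaatttATTAAAtttggcttttagaaat
Cpe, chr8:64592561-64592590, minus strand: ttggcccagaattgcattctgatgAATAAA
In these runs the signal starts between 2 bases upstream of the listed position (Chn1) and 5 bases downstream of it (Tmsb4x), except at Cpe, where it starts 14 bases downstream. Which part of a cluster of tags the listed position marks is not given in the sources used here, so distances from it are distances from that position and not from the cleavage site. A further 3 well-tagged synaptic sites are shown because neither hexamer was found within 50 bases on either side of them.
Dlg4, chr11:70045498-70045527, plus strand: ttgagagagtgaaaggaagagacagacact
Cplx2, chr13:54383884-54383913, plus strand: accatgatgacaaagaaaaagaccttgtac
Ppp1r9b, chr11:95006865-95006894, plus strand: tgtcaggtcgtccccataaaagcagccccc
The absence of a match says only that these letters are not in the window.

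The 4 libraries held 16017, 6609, 5947 and 6099 tags at the sites of the table, and tagged 4824, 2673, 3534 and 3233 sites. The selected sites took 7841 tags or 49.0% of library 1 (95% Wilson interval 48.2% to 49.7%), 2521 or 38.1% of library 2 (37.0% to 39.3%), 1550 or 26.1% of library 3 (24.96% to 27.2%) and 1847 or 30.3% of library 4 (29.1% to 31.4%). The share was therefore highest in library 1 and lowest in library 3, with a mean of 35.9% ± 10.1 (SD, n = 4). A site with a sequence like the noncoding RNA Bc1, described below, held much of the share in library 1. When all Bc1-like sites were left out of both the selected sites and the totals, the shares were 34.8%, 42.7%, 24.4% and 29.1%, highest in library 2. Intervals cover counting error only. With 0 tags, the true share could still reach 0.0187% in library 1 and 0.0454% to 0.0504% in the others, the value of 3 tags.

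**Figure D1:**
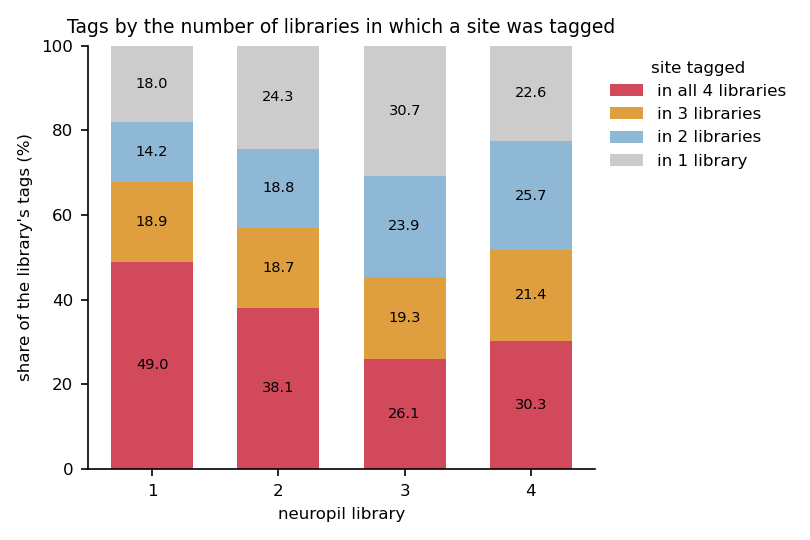
Share of each library's tags (%, stacked to the library total) at sites tagged in all 4 libraries, in 3, in 2 or in 1, for the 4 neuropil libraries. The sites tagged in all 4 libraries took between 26.1% and 49.0% of tags.

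Most of the selected sites rested on few tags. They had a median of 11.5 tags over the 4 libraries (quartiles 7 and 21, highest 4264), against a median of 1 tag at the other 8841 sites. By the rule a selected site has at least 4 tags, and among the 1658 sites of the table with at least 4 tags 27.5% were selected, so the share among such sites is given beside the share of all sites for the function lists. In 325 of the 456 sites at least 1 library held exactly 1 tag, and 12 sites had at least 10 tags in every library.

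The selected sites with the highest median share of the library's tags are described first. A tag marks the 3′ end of an mRNA, so the values below are tags or shares of tags per site, not scaled to transcript length. The site named Fbxl16, an F-box protein gene, held 168, 115, 20 and 36 tags in libraries 1 to 4 (median share 0.820%, mean 0.929% ± 0.616). The site of Kif5a, a kinesin-1 heavy chain that carries cargo along microtubules, held 162, 139, 11 and 10 tags (median 0.598%). Both took a larger share of libraries 1 and 2 than of libraries 3 and 4.

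Tmsb4x, which encodes the actin monomer-binding peptide thymosin beta 4, held 77, 29, 16 and 26 tags, and its share stayed within a narrow range at 0.404% ± 0.0928. Snap25, a SNARE protein of vesicle fusion, held 31, 3, 36 and 57 tags, with its lowest share in library 2. Fth1, the ferritin heavy chain that stores iron, held 74, 61, 16 and 12 tags. Library 2 thus gave the highest share of Fth1 and the lowest of Snap25.

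Cnih2, an auxiliary subunit of AMPA receptors, held 93 and 57 tags in libraries 1 and 2 but 1 and 3 tags in libraries 3 and 4. The site named Mir6982, which lies in the 3′UTR of Camk2a, the kinase subunit that gives these mice their Cre promoter, held 66, 13, 10 and 26 tags. Dlg4, the main scaffold of the postsynaptic density, held 43, 26, 11 and 17 tags and was among the evener sites at 0.281% ± 0.0857. Hdac8, which had the highest median share, is described below, and further sites among the 20 highest were Ncdn, Hbb-b1, Selenow, Rplp1, Chn1, Cpe, Ndufa4, Tspan7 and Calm3, with median shares from 0.206% (Calm3) to 0.273% (Ncdn).

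**Figure D2:**
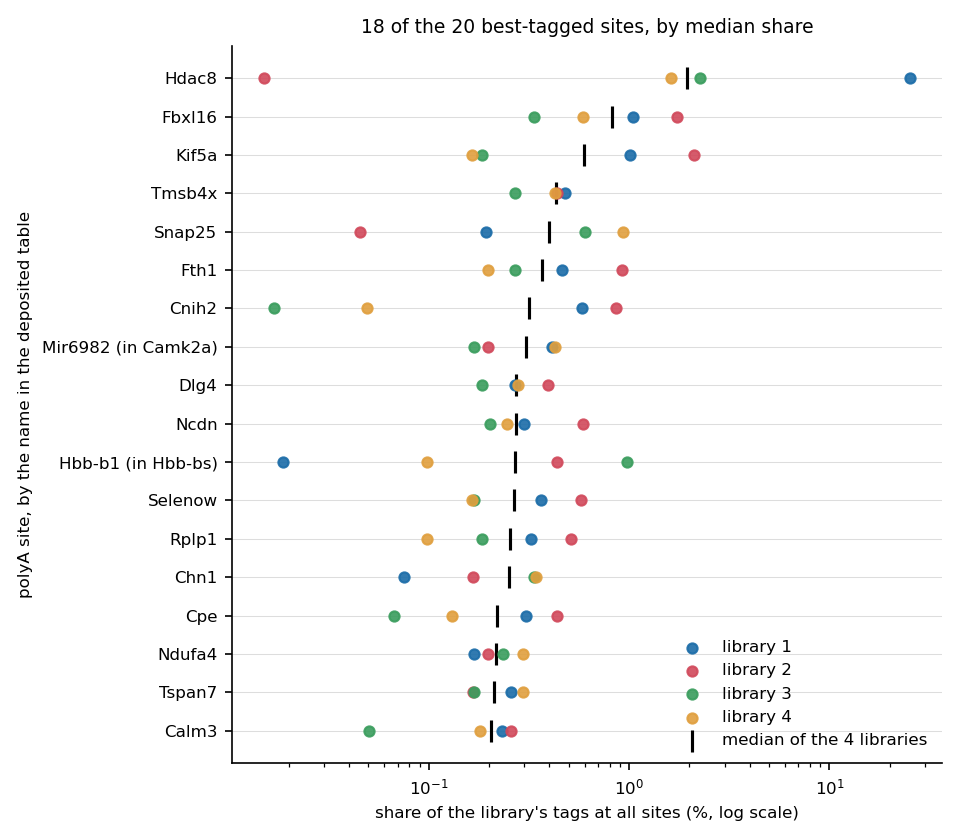
Share of each library's tags (%, log scale) at 18 of the 20 selected sites with the highest median share. Points are the 4 libraries and vertical ticks their median. Tmsb4x, Dlg4, Ndufa4 and Tspan7 lie close together over the libraries, whereas Hdac8, Cnih2, Snap25 and Hbb-b1 spread over more than a decade.

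To describe the functions of the selected sites, the gene names were sorted into 27 function lists. Of the 456 sites, 211 (46.3%) fell in at least 1 list, and 9.44% of the 2234 sites in any list were selected, against 3.47% of the 7063 sites in none. In 21 of the 27 lists the share of selected sites was above the 4.90% of the whole table. Among sites with at least 4 tags, 20 of the 27 lists were above 27.5%. These counts come from the tags that made the selection and were not tested.

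Among the lists with more than 10 selected sites, the genes of calcium signalling had the largest share, with 17 of 52 sites (32.7%, and 17 of 25 with at least 4 tags). Their sites held a median of 3 tags, against 1 over all sites. The list held the calmodulin gene Calm3, the calmodulin-binding proteins Nrgn and Pcp4, the CaMKII inhibitor Camk2n1, the kinase subunits Camk2b and Camk2d, the kinase-like Camkv, and the neuronal calcium sensors Ncs1, Hpca, Hpcal4 and Vsnl1. Camk2n1 held 17, 8, 15 and 25 tags, with its lowest share in library 1, and the Calm3 site held 37, 17, 3 and 11. The summed share of the 17 sites was 1.505%, 1.23%, 1.63% and 2.0003% in libraries 1 to 4, an SD of 0.322 on a mean of 1.59%. The sites in Camk2a carry a microRNA name in the table and are not in this count.

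Scaffold and adaptor genes of the postsynaptic density held 15 of 85 sites (17.6%, and 57.7% of those with at least 4 tags). Among them were Dlg4, Psd, Ppp1r9b, Agap2, Ddn, Iqsec2, Kalrn, Begain, Baiap2, Dlgap4, Psd3, Cnksr2, Mpp2 and Ppp1r9a, of which the Cnksr2 site lies between genes in vM21. Psd, an exchange factor for Arf GTPases, held 39, 39, 2 and 4 tags, and Ppp1r9b, the actin- and phosphatase-binding spinophilin, held 19, 36, 2 and 7. The summed share of the 15 sites ranged from 0.622% in library 3 to 2.35% in library 2.

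Receptor and channel genes were represented by fewer sites. Glutamate receptors and their auxiliary subunits held 4 of 43 sites (9.30%, and 4 of 10 with at least 4 tags), in Cnih2, Gria3, Grin1 and Cacng7. Beside Cnih2 these had few tags, with 6, 2, 1 and 4 at the AMPA receptor subunit Gria3 and 1, 2, 2 and 2 at the obligatory NMDA receptor subunit Grin1. GABA receptor genes held 3 of 29, Gabarapl1 and Gabbr2 among them (3 of 9 with at least 4 tags). Potassium channel genes held 4 of 53 (7.55%), in Kcnab2, Kcnma1, Kcnh3 and Kcna2, and lay below the table's 27.5% among sites with at least 4 tags (26.7%). The list of calcium and sodium channels and ion pumps held 7 of 53 (13.2%, and 7 of 20 with at least 4 tags), among them the sodium pump subunit Atp1b1 with 14, 4, 4 and 6 tags and the plasma membrane calcium pump Atp2b1 with 7, 3, 3 and 10.

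Presynaptic genes had a share close to that of the postsynaptic scaffolds, with 16 of 86 sites (18.6%, and 55.2% of those with at least 4 tags) in the vesicle and SNARE list. Among them were Snap25, Cplx2, Vamp2, Syt11, Dnm1, Snap47, Nsf, Cplx1, Syp, Stxbp5, Syngr1, Sv2a, Snap91 and Syt4. Cplx2, which clamps SNARE complexes, held 28, 19, 6 and 1 tags, and Vamp2, the vesicle SNARE synaptobrevin, held 12, 2, 3 and 5. The summed share of the 16 sites was 0.749%, 0.893%, 1.33% and 1.82% in libraries 1 to 4.

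Cytoskeletal genes were found in both lists made for them. The list of microtubule genes and motors held 14 of 100 sites (14%, and 14 of 35 with at least 4 tags). Its motors were the kinesins Kif5a and Kif1a and the actin motor Myo5a. It also held the kinesin light chain Klc1 and the dynein light chains Dynll1, Dynll2 and Dynlrb1. The rest were the tubulins Tubb2a, Tubb3 and Tubb5 and the microtubule-associated Map2, Map1a, Map6 and Mapre3. Map2, whose mRNA is a classic dendritic message, held 23, 8, 14 and 19 tags at a site 22 bases before an annotated transcript end. The actin list held 13 of 68 sites (19.1%, and 48.1% of those with at least 4 tags) under 12 gene names, 1 of them a site named Abi1 that lies in the pseudogene Gm13341. Further sites were in Tmsb4x, Tmsb10, Actb, Pfn1 and the WAVE complex subunits Wasf1, Cyfip2, Nckap1 and Abi1. Pfn1, which encodes the actin-binding protein profilin, held 51 of its 65 tags in library 2.

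Genes of protein synthesis were divided. Cytosolic ribosomal proteins held 8 of 38 sites (21.1%, and 61.5% of those with at least 4 tags), among them Rplp1, Rps24, Rps20, Rpl18, Rps10, Rps15a and Rpl14, and translation initiation and elongation factors 1 of 47 (2.13%, and 1 of 7 with at least 4 tags), in Eef1d. Rplp1, a protein of the ribosomal stalk, held 52, 34, 11 and 6 tags, and Rps24 held 28, 20, 3 and 3. The summed share of the 8 ribosomal sites was 0.668%, 1.24%, 0.404% and 0.295%. RNA-binding regulators held 13 of 139 (9.35%, and 28.9% of those with at least 4 tags), led by Purb with 19, 23, 2 and 3 tags, Celf2 with 5, 12, 3 and 1, and Ddx17 with 5, 1, 4 and 3. Fmr1, which encodes the translational repressor FMRP, had exactly 1 tag in each library.

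Energy and membrane traffic genes followed. The respiratory chain and ATP synthase held 9 of 76 sites (11.8%), led by Ndufa4 with 27, 13, 14 and 18 tags, an even site at 0.224% ± 0.0548. Among its sites with at least 4 tags this list was at 25.7%, below the 27.5% of the table. The endosome, lysosome and proton pump list held 15 of 95 (15.8%, and 15 of 25 with at least 4 tags), with the proton pump subunits Atp6v1e1, Atp6v1h, Atp6v1b2, Atp6v1g2, Atp6v1d and Atp6v1c1 and the accessory protein Atp6ap2. Ferritin and iron genes held 2 of 4 sites, Fth1 and Ireb2 (2 of 2 with at least 4 tags), and glycolysis genes 3 of 20, Tpi1, Aldoa and Pfkm (3 of 8 with at least 4 tags).

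Signalling and surface genes lay nearer to the table's share over all sites, and mostly above it among sites with at least 4 tags, a share given second here. Serine-threonine kinases held 9 of 108 sites (8.33%, 36.0%), led by Prkcb with 20, 4, 5 and 8 tags and the activators of Cdk5, Cdk5r1 and Cdk5r2. Phosphatase subunits and inhibitors held 10 of 101 (9.90%, 43.5%), with the calcineurin catalytic subunits Ppp3ca and Ppp3cb. Small GTPases and their regulators held 12 of 163 (7.36%, 33.3%), ER and Golgi genes 6 of 74 (8.11%, 6 of 20), solute carriers 10 of 144 (6.94%, 52.6%) and adhesion genes 10 of 112 (8.93%, 45.5%). Jph4, a junctophilin that ties the endoplasmic reticulum to the plasma membrane, led the ER list with 46, 90, 2 and 4 tags. Adcy1, a calmodulin-stimulated adenylyl cyclase, was the best tagged of the 3 selected sites among 64 of the G protein and cyclic nucleotide list (4.69%, 14.3%), with 34, 38, 3 and 11 tags.

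The nuclear and protein turnover lists lay below the table's share over all sites. Among sites with at least 4 tags they lay below 27.5% too, except for the chromatin regulators at 30.8% or 4 of 13, which were at 3 of 12 without the Bc1-like site. Zinc finger proteins held 1 of 168 sites (0.595%, 14.3%), Zfp365, and chromatin regulators 4 of 98 (4.08%), namely Smarcd1, Chd5, Ash1l and the Bc1-like site named Hdac8. Ubiquitin pathway genes held 3 of 146 (2.05%, 14.3%), Fbxl16 and Uchl1 among them, and proteasome subunits and chaperones 3 of 79 (3.80%, 21.4%). In the zinc finger list 7 of the 168 sites reached 4 tags, so few of its sites could have been selected.

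**Figure D3:**
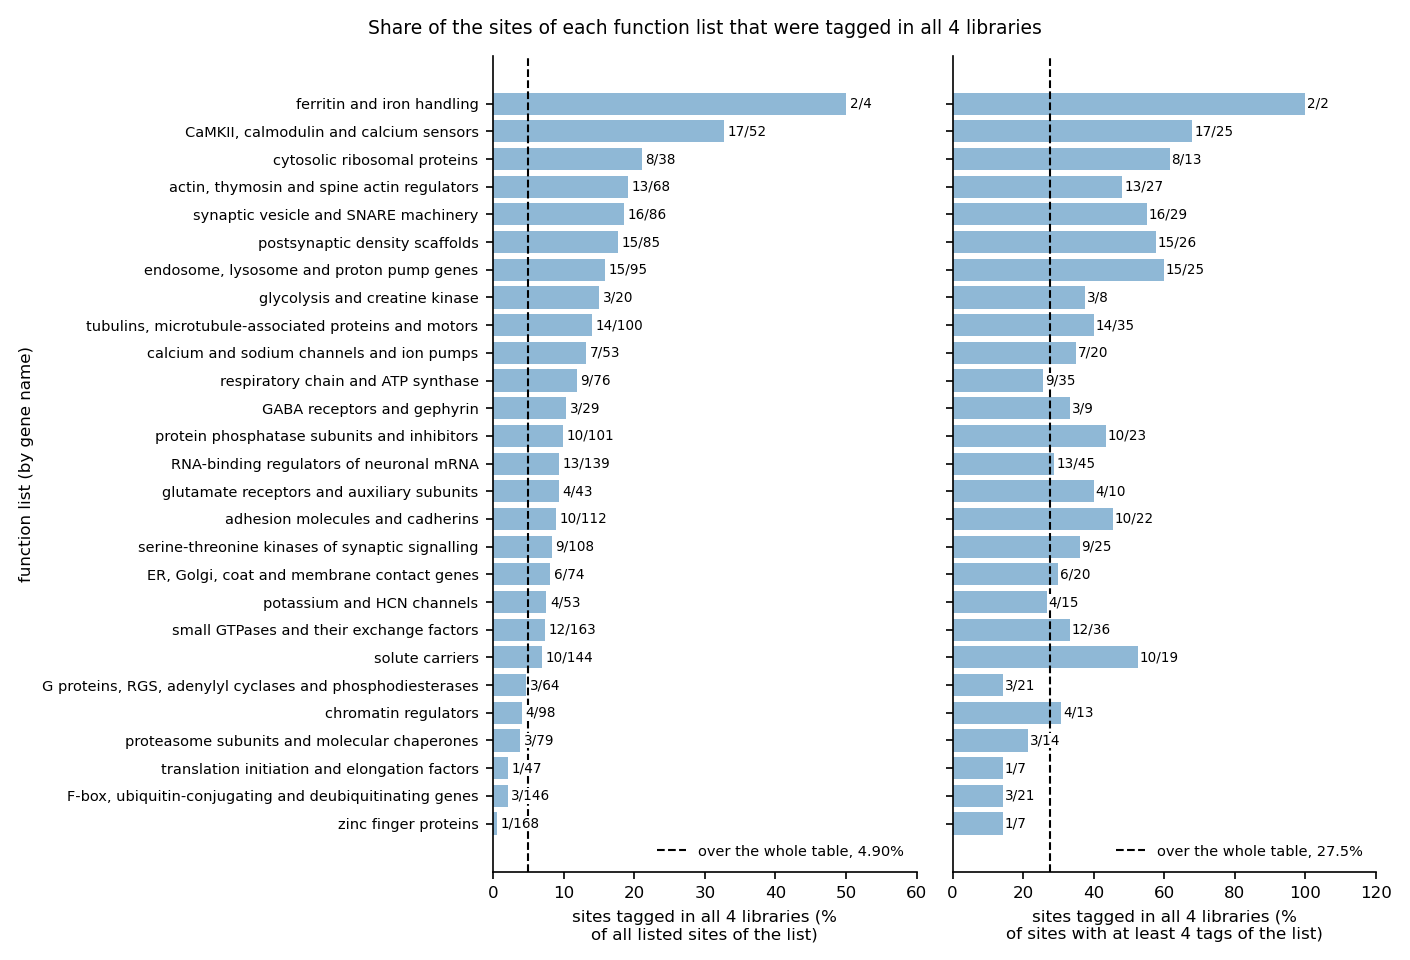
Percent of the sites of each function list that were tagged in all 4 libraries, over all sites of the list (left) and over its sites with at least 4 tags (right), with the numbers of sites beside the bars. Dashed lines give the share over the whole table, 4.90% and 27.5%. Calcium signalling, ribosomal, actin, vesicle and postsynaptic lists lie above both lines, and zinc finger, ubiquitin and translation factor lists below both.

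The position of the sites in genes was not used to select them and was therefore tested. Of the 456 sites, 436 (95.6%, 95% Wilson interval 93.3% to 97.1%) lay in an annotated 3′UTR of GENCODE vM21, against 6673 of 8838 other sites (75.5%, 74.6% to 76.4%). The difference of 20.1 percentage points was larger than counting error (Fisher's exact test, two-sided, adjusted p = 1.79e-29 over 4 tests). The other sites had far fewer tags, and against those with at least 4 tags, a comparison chosen after seeing the data, the difference was 11.6 points (95.6% against 84.0%, Fisher's exact test, adjusted p = 4.29e-11). Against the 872 sites tagged in exactly 3 libraries, of which 92.3% lay in a 3′UTR, it was 3.30 points (Fisher's exact test, adjusted p = 0.0345). Of the remaining selected sites 14 lay between genes, 5 in a noncoding exon and 1 in an intron. Sites are counted as units here, and neighbouring sites of 1 gene are not independent of each other.

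A polyA signal was also more frequent at the selected sites. AATAAA or ATTAAA, read on the strand of the site, started within 50 bases on either side of 407 of them (89.3%, 86.1% to 91.8%), and of 77.7% of the other sites (76.8% to 78.5%), a difference of 11.6 points (Fisher's exact test, adjusted p = 9.65e-10). Against sites tagged in exactly 3 libraries, at 87.6% (85.3% to 89.6%), the difference of 1.64 points did not pass the test (Fisher's exact test, adjusted p = 0.421). The direction depended on where the signal was sought. With the whole hexamer required within the 50 bases upstream, 17.3% of the selected sites and 28.2% of the others had a signal (difference -10.9 points, Fisher's exact test, adjusted p = 3.33e-07). Signals that started 1 to 5 bases upstream were thereby left out. The nearest signal started there at 27.4% of the selected sites and 23.3% of the others.

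The listed positions, whose place within a tag cluster is not known here, lay near the signal and a little upstream of annotated transcript ends. Among the 407 selected sites with a signal, its start had a median distance of 0 bases from the listed position (quartiles 2 bases upstream and 3 bases downstream), and 381 (93.6%) started within 10 bases of it, against 82.7% of the other sites with a signal. The nearest signal was AATAAA at 344 sites and ATTAAA at 63. Of all selected sites, 402 (88.2%) lay within 100 bases of an annotated transcript end, at a median of 22 bases before it, against 62.3% of the other sites. The distance along the 3′UTR from the stop codon to the selected sites had a median of 1109 bases (quartiles 520.25 and 2194.75), and that of the other sites 1024 bases.

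**Figure D4:**
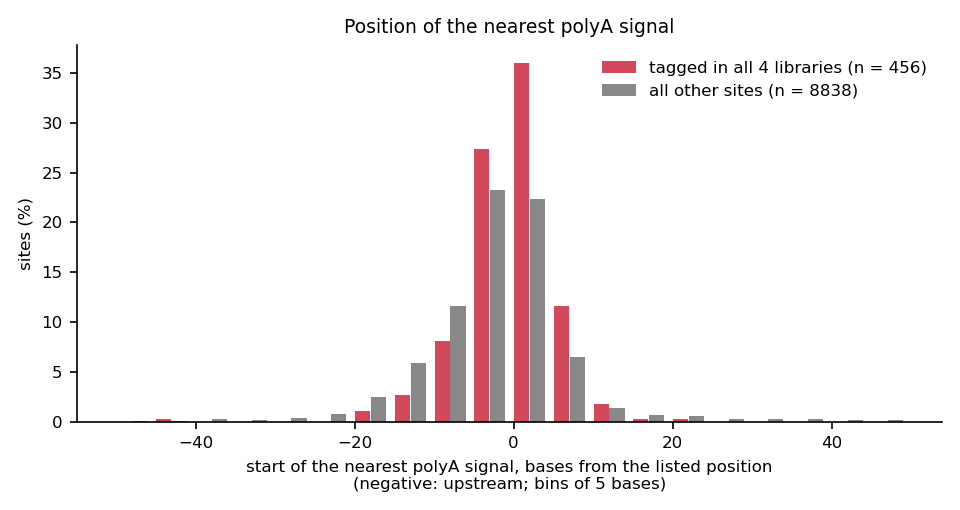
Distribution of the start of the nearest AATAAA or ATTAAA relative to the listed position (bases, bins of 5), as a percent of the 456 sites tagged in all 4 libraries and of the 8838 other annotated sites. The selected sites are concentrated in the bins around 0.

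The names in the table hid several neuronal genes. All 23 selected sites named for a microRNA lay in the 3′UTR of a protein-coding gene in vM21, and together they held 435 tags. Beside Mir6982 in Camk2a, these included Mir7055 in the vesicular glutamate transporter gene Slc17a7, Mir7661 in the calcium release channel gene Itpr1, Mir6997 in the spectrin gene Sptan1, Mir6944 in the drebrin gene Dbn1 and Mir3091 in the ribosomal protein gene Rps21. These microRNA names were picked after their values were seen. Over the table, 332 of 434 sites with such a name lay in a 3′UTR of a protein-coding gene. In all, the name and the vM21 gene differed at 42 selected sites, and 14 had no vM21 gene. A site kept its name wherever the named gene overlapped it, even in the 3′UTR of another gene, so 42 is a lower bound. Of the sites that fell in the 3′UTRs of several genes, Pcdhgc5, with 19, 3, 10 and 9 tags, and Pcdhac2 lay on the last exons shared by the clustered protocadherins and cannot be given to 1 isoform.

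Of the 450 gene names, 287 (63.8%) had a single listed site and 163 had more, whereas 78.3% of all names in the table had a single site. In 158 of these 163 names a selected site was the best tagged, and the selected sites held a median of 87.5% of the tags of the name. Both values follow in part from the rule, which selects sites with more tags. Among 158 names with 1 selected site and further sites on its strand, the selected site was the most distal in 89, the most proximal in 42 and in between in 27. No such count was made for other names with several sites, so a preference for distal sites was not tested.

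Nrgn, Gpm6a, Abi1 and Sez6l2 were among the names with more than 1 selected site. Nrgn, the postsynaptic calmodulin-binding protein neurogranin, had sites at 402 and 843 bases of its 3′UTR. The proximal site held 17, 3, 1 and 1 tags and the distal site 14, 3, 5 and 8, so that the distal share was 45.2%, 50%, 83.3% and 88.9%. The pair of sites in the membrane glycoprotein gene Gpm6a lay 204 bases apart, with 12, 8, 8 and 8 tags at the proximal and 1, 1, 3 and 3 at the distal one. Of the sites named Sez6l2, the better tagged lay in the 3′UTR of Kctd13, and of those named Abi1, in the pseudogene Gm13341, so these pairs are not isoforms of 1 gene.

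**Figure D5:**
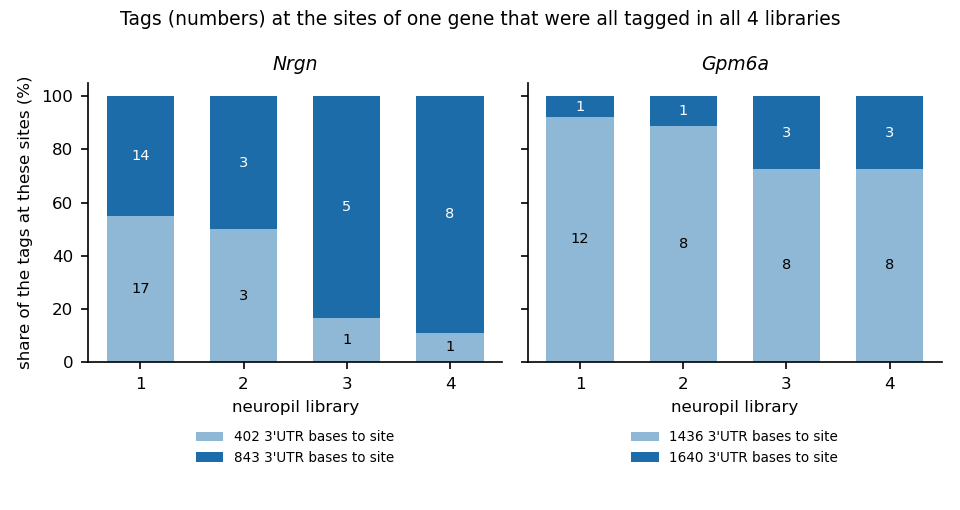
Share (%) of the tags at the selected sites of Nrgn and Gpm6a that fell on each site, for the 4 neuropil libraries, with tag counts in the bars and the position of each site in the 3′UTR below. The distal Nrgn site holds most tags in libraries 3 and 4, and the proximal Gpm6a site holds most in all 4 libraries.

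Being tagged in every library did not mean an even share. The coefficient of variation of a site's share over the 4 libraries had a median of 0.566 (quartiles 0.388 and 0.761), and 118 sites (25.9%) had over 50% of the sum of their 4 shares in 1 library. Among the evenest of the 128 sites with at least 20 tags were Camk2b with 9, 4, 5 and 5 tags, Pcp4 with 8, 5, 3 and 4, Rps20 with 9, 5, 3 and 3, and the sodium pump subunit Atp1b1 with 14, 4, 4 and 6. Their coefficients lay between 0.203 and 0.224. Among the most uneven were Hdac8, Wsb2 with 3, 18, 1 and 1 tags, the potassium channel subunit Kcnab2 with 29, 51, 1 and 1, and Jph4, from 1.43 to 1.65. Except for Hdac8, these had their highest share in library 2.

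Libraries 1 and 2 resembled each other more than libraries 2 and 4 did. Over the 452 selected sites that were not Bc1-like, Spearman's rho of the shares was 0.508 between libraries 1 and 2 and 0.510 between 3 and 4, and 0.284 to 0.431 in the other pairs. This describes sites that share their libraries and their depth, and no label tells the libraries apart. The tag-weighted GC content around these sites was 41.5%, 42.7%, 39.8% and 40.02% in libraries 1 to 4. Its part in the differences was not tested.

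A group of 4 selected sites resembled Bc1, a short noncoding RNA of dendrites that represses translation. These sites, named Hdac8, Lrrc17, Saa2 and Akap8, share at least 10 words of 12 bases with the first 74 bases of Bc1. The first 30 bases of Bc1 and the matching part beside each site are shown, with capitals for bases that differ from Bc1.
Bc1 gene, chr7:144914470-144914499, plus strand: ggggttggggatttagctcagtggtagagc
Hdac8, chrX:102296930-102296959, minus strand: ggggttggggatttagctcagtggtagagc
Lrrc17, chr5:21575448-21575477, plus strand: gggTttggggatttagctcagtggtagagc
Saa2, chr7:46770125-46770154, plus strand: gTAAAATTggatttagctcagtggtagagc
Akap8, chr17:32285149-32285178, minus strand: ggggttggAgatttagctcagtggtagagc
The run beside Hdac8 is identical to Bc1, and those beside Lrrc17 and Akap8 differ by 1 base each.

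The site named Hdac8, in an intron of that gene, held 4030 tags in library 1, 1 in library 2, 134 in library 3 and 99 in library 4. It took 25.2% of library 1 (95% Wilson interval 24.5% to 25.8%), 2.25% of library 3 and 1.62% of library 4, and 31.0% of all tags at the selected sites. The other 3 Bc1-like sites held 61 (Lrrc17), 25 (Saa2) and 26 (Akap8) tags. The gene Bc1 itself was tagged under the name Fgf15, with 755, 0, 6 and 12 tags, and so fell outside the selection through library 2. Over all listed sites, 112 were Bc1-like and took 32.9%, 11.8%, 2.59% and 2.07% of the 4 libraries. The deposited counts do not carry the reads, and whether tags at these sites came from Bc1 was not tested.

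Markers of other cells were tagged in every library at some sites, and the astrocyte, oligodendrocyte and blood lists lay above the table's 4.90% and 27.5%, as the pyramidal neuron list did. The pyramidal neuron list held 3 selected sites of 14 (21.4%, and 3 of 4 with at least 4 tags), Mpped1 and both Nrgn sites, with a summed share of 0.135% to 0.331% that leaves out Camk2a and Slc17a7, which were present under microRNA names. Counted by vM21 gene, with both included, 5 of 18 sites were selected, with a summed share of 0.793%, 0.530%, 0.370% and 0.771% in libraries 1 to 4. The astrocyte list held 5 of 26 (19.2%, and 35.7% of those with at least 4 tags), Sparcl1, Apoe, Mt3, Mt2 and Slc1a2, with 0.164% to 0.387%, and all 14 of its genes had a tag, Gfap 5 and Aqp4 5 in all. The oligodendrocyte list held 3 of 12 (3 of 3 with at least 4 tags), Mbp and Mobp among them, with 0.115% to 0.499%, and Cryab and Olig1 had no site by name. Mbp, a myelin mRNA that is itself transported into processes, held 20, 27, 6 and 2 tags.

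The blood list held 2 of 4 sites (2 of 2 with at least 4 tags), Hbb-b1 with 3, 29, 58 and 6 tags and Hbb-bt with 1, 7, 18 and 3, for a summed share of 0.0250%, 0.545%, 1.28% and 0.148%. The beta-globin genes are close copies of each other, and the site named Hbb-b1 is Hbb-bs in vM21. Of the other blood genes, Alas2 had 2 tags and Hba-a1 1, neither selected, with Hba-a2 and Hbb-b2 at 0 by name and by vM21 gene. The interneuron list held 1 of 5 (1 of 3 with at least 4 tags), Gad1 with 3, 1, 2 and 2 tags. By name its best-tagged gene was Npy, whose pair of sites, neither of them selected, held 4, 0, 6 and 12 tags in all, 5 of these tags at the site that is Npy in vM21. Sst had 2 tags and Pvalb 1, with Slc32a1, Vip and Lhx6 at 0 by name and by vM21 gene and Gad2 tagged only through its vM21 gene, at 2 sites with 2 tags in all. The endothelial list held 1 of 3 (1 of 1 with at least 4 tags), Bsg, with Cldn5, Pecam1 and Vwf at 0, and the microglia list 0 of 5 (0 of 1), with Csf1r, C1qb, P2ry12 and Tmem119 at 0 by name and by vM21 gene and Cx3cr1 at 3 tags by vM21 gene alone. RNA was purified through a protein tagged in Camk2a-Cre cells, and carry-over of RNA from other cells through that purification was not tested. In pooled tissue fewer cells of a type and less RNA per cell cannot be told apart, and the part of these cells in the counts of genes that several cell types express was not tested.

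At the threshold, 22 sites had exactly 1 tag in every library, among them Fmr1, Ago2, the neurotrophin receptor gene Ntrk2, Ash1l, Adnp and Vps41. The best-tagged sites just outside, in exactly 3 libraries, were Fgf15, As3mt with 118, 0, 2 and 3 tags, a further site named Mir6982 in the Camk2a 3′UTR with 69, 1, 1 and 0, Cabp7 with 39, 27, 2 and 0, and Notch2 with 1, 0, 26 and 32. Of these, Fgf15 and As3mt were Bc1-like. With at least 2 tags required in each library, 131 sites remained, of which 130 lay in a 3′UTR and 10 in the calcium signalling list.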

How the data were processed

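The authors sequenced cTag-PAPERCLIP tags from 4 CA1 neuropil libraries, and per the study's methods mapped them to the genome and called polyA sites as clusters with CTK. The name of the deposited table describes neuropil tags that overlap Camk peaks, so the listed sites need not have been called from the 4 neuropil libraries. The methods filter peaks of whole-cell libraries by tags and by their share of a gene's tags. Whether that filter made this list is not given in the sources used here. The submitters' processing notes name cutadapt, Novoalign and mm10. The deposited table gives, per site, raw tag counts of each library with no normalization. Collapsing of duplicate tags and the handling of tags with several matches are not given in the sources used here, so sites of near-identical genes (globins, ribosomal proteins, calmodulins) are uncertain.

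Each count was divided by its library's total over the table (5947 to 16017 tags). Sites were placed in GENCODE vM21 (GRCm38, equal to mm10) in the order 3′UTR, other exons, intron, between genes, with Python 3 scripts (pandas, scipy, pysam); 3 sites on other scaffolds were left out of that step. Shares carry 95% Wilson intervals. The share of sites in a 3′UTR and with a polyA signal was compared by a two-sided Fisher's exact test, and the 4 p-values were adjusted by the Benjamini-Hochberg method. The search and test were checked on simulated sequences with planted signals. The members and the lists were chosen with earlier results of these data known.

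Named sites were the 20 with the highest median share, the 5 most and 5 least even with at least 20 tags, up to 3 per list, names with several selected sites, and those at the threshold; full member names of lists, microRNA names and sites in the closing section go beyond this and were chosen after their values were seen. A few genes that meet this rule are not reported here, but stay in all counts of sites. A Bc1-like site shares at least 10 words of 12 bases, on either strand, with the first 74 bases of Bc1 within 75 bases.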

Additional observations from a re-analysis of the deposited data

Results flagged for a closer look

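Among 130 sets of 4 library values examined for 1 value far from the others, 15 held one, 9 of them in library 2. For independent, normally distributed values chance would flag about 1 in 20 sets. Several sets here rest on few tags or share sites with another set, so that rate is no yardstick for the 15. In library 1 the total of 16017 tags stood above 5947 to 6609 in the others. There the site named Hdac8 took 25.2% against at most 2.25% elsewhere. This also set the selected sites of the chromatin regulator list at 25.2% against at most 2.30%. Grin1 was lowest in library 1, at 0.00624% or 1 tag.

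Library 2 stood high at 1.48% for the selected sites of the ER and Golgi list (at most 0.462% elsewhere), of which the site of Jph4 alone held 1.36%. Without Jph4, a setting chosen after seeing the data, the selected sites of this list were lowest in library 2 at 0.121% (0.175% to 0.286% elsewhere). Library 2 was also high at 0.772% for Pfn1 (at most 0.115%) and at 0.545% for Ppp1r9b (at most 0.119%). It was also high for Wsb2 at 0.272%, Tpi1 at 0.136%, Kcnh3 and Mobp at 0.0605% each, and Eef1d at 0.0303%. Eef1d is the only selected site of the translation factor list, which over all its sites took 0.348% of library 2. The sites of Kcnh3, Mobp and Eef1d rested on 2 to 4 tags in that library. Gabarapl1 was lowest (0.0168%) and Gabbr2 highest (0.0504%) in library 3, each on 1 to 3 tags. The tag-weighted GC content at the selected sites was also highest in library 2, and its part in these values was not tested.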

How the results depend on the processing

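No paired analysis was possible because all libraries belong to 1 group. The number of selected sites was 131 with at least 2 tags in each library, 452 without Bc1-like sites, and 546 to 794 when 1 library was left out and tags were required in the other 3 (794 without library 2, 708 without library 3). The mean share of tags at the selected sites was 16.5% with at least 2 tags each and 32.7% without Bc1-like sites. At the 456 sites of the main rule it was 31.5% to 39.1% when 1 library was left out of the mean. The share at the sites selected anew without 1 library was not computed. The 3′UTR difference stayed positive and past the threshold under every alternative tried, from 3.30 points (against sites in exactly 3 libraries) to 23.1 points (at least 2 tags in each library). Against other sites with at least 4 tags, a comparison chosen after seeing the data, it was 11.6 points (Fisher's exact test, adjusted p = 4.29e-11), and that of the polyA signal 8.64 points (Fisher's exact test, adjusted p = 3.99e-05). The count of lists among sites with at least 4 tags, both differences without Bc1-like sites, the share of tags without the site named Hdac8 and the lists counted without 1 site or with Camk2a and Slc17a7 were also chosen after seeing the data. The polyA signal difference lost the threshold against sites in exactly 3 libraries (1.64 points) and reversed with the upstream window (-10.9 points), and lay between 8.64 and 13.6 points otherwise. The cause of the reversal was not tested. The number of function lists above the table's share was 17 to 24 of 27 under all alternatives. For single lists, 63 of 204 recomputed counts differed from the main count by over 1.5 times. Depth limits the sites: with a median of 2 tags per selected site in libraries 2, 3 and 4, a site in 3 libraries cannot be said to be absent from the fourth.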

Other observations

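Further families, chosen after their values were seen and so described without a test, were represented among the selected sites. The share selected over the whole table was 4.90% of sites and 27.5% of sites with at least 4 tags. Of 11 mRNA names known from textbooks as dendritic, 8 had a selected site, with 11 of 25 sites (44.0%, and 61.1% of those with at least 4 tags), among them Mir6982 (in Camk2a), Dlg4, Map2, Ddn, Nrgn, Actb and Fmr1. The postsynaptic protein dendrin gene Ddn held 39, 4, 2 and 4 tags in libraries 1 to 4. Shank1 was tagged in 3 libraries at each of its best sites, with 11, 10, 0 and 2 tags at the better one. The summed share of the 25 sites was 2.34%, 1.498%, 1.72% and 2.13%.

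The V-type proton pump, which acidifies synaptic vesicles and lysosomes, had 7 selected sites of 17 (41.2%, and 7 of 11 with at least 4 tags), 1 in each of 7 genes, with 4 to 18 tags each. The WAVE complex, which drives branched actin, had 4 selected sites in 4 genes, beside a site named Abi1 in the pseudogene Gm13341, of 18 sites by name (5 of 7 with at least 4 tags, the Gm13341 site included). Of the dynein light chain genes 3 of 4 sites were selected (3 of 3 with at least 4 tags), with 26 (Dynll1), 20 (Dynll2) and 11 (Dynlrb1) tags. Both Nptx1 and Nptxr, which encode pentraxins that cluster AMPA receptors, were selected, with 7, 10, 4 and 6 tags at Nptx1 and 12, 2, 1 and 15 at Nptxr. App and Aplp1 held 14, 3, 7 and 12 and 12, 15, 4 and 9 tags. Of neuropeptide genes and their processing enzymes, 3 of 18 sites were selected (3 of 9 with at least 4 tags), Cpe with 90 tags, Pcsk1n with 71 and Cck with 14. Among immediate early genes, 2 of 10 sites were selected (2 of 4 with at least 4 tags), Egr3 with 1, 6, 3 and 3 tags and Egr1 with 2, 2, 1 and 4.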
